A study of Mus musculus with 8 samples.

Results

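The cells described here were gamma-delta T cells of mouse lung grafts, chosen one by one from single-cell RNA sequencing. A cell was a member when the deposited annotation labelled it T cell, it held 1 UMI or more of Trdc (the constant region of the T cell receptor delta chain), it held 1 UMI or more of Cd3d, Cd3e and Cd3g together (the CD3 chains that carry the receptor to the surface), and it held no UMI of Cd4, Cd8a, Cd8b1 or Foxp3. A UMI is the tag of a single captured RNA molecule. The rule gave 177 members of 5071 cells labelled T cell and of 20778 cells in all. Male C57BL/6 (B6) recipients received an orthotopic left lung graft from a B6 donor (the B6→B6 group, 5 mice, controls without rejection) or from an HLA donor, a B6 mouse transgenic for human HLA-A2.1 (the HLA→B6 group, 3 mice, the model of bronchiolitis obliterans syndrome, BOS). No mouse was given immunosuppression, and the grafts were taken 1 month after surgery and dissociated to whole-lung suspensions, of which 10000 cells were loaded per library on a droplet 3′ platform. Host and donor T cells cannot be told apart in these data. For comparison, 538 Cd4-positive T cells (CD3 chains and Cd4 detected, with no Trdc, Cd8a, Cd8b1 or Foxp3) and 1602 Cd8a-positive T cells (CD3 chains and Cd8a detected, with no Trdc, Cd4 or Foxp3) were taken from the same mice.

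Gamma-delta T cells carry a receptor built from a gamma and a delta chain in place of the alpha and beta chains of conventional T cells, and most of them recognise their ligands without classical MHC presentation. In mice they leave the thymus largely precommitted to 1 of 2 programs. Cells of the first make IL-17, depend on transcription factors such as c-Maf, and seat themselves early in life in barrier tissues, the lung among them. Cells of the second make interferon-γ, use T-bet and carry receptors shared with natural killer (NK) cells.

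Before the results, 2 features of the libraries bear on these cells. T cell cluster 7 of the deposited clustering held 954 cells, all of B6→B6 mouse 4, of which 46.8% held Rag1 and 50.2% held Dntt, genes of receptor rearrangement in the thymus. It held 6 of the 20 members of that mouse, of which 3 held Rag1, 4 held Dntt and 3 held Ptcra, so results that include that mouse were also computed without the cluster. Cell barcodes were shared far beyond chance among the libraries of B6→B6 mice 1, 2 and 3 and HLA→B6 mouse 2, with 160 shared between B6→B6 mouse 2 and HLA→B6 mouse 2 where 6.98 were expected. Of the members, 3 carried a barcode found in another mouse, and removal of shared-barcode cells took out 2 of them. Members had a median of 1920 UMIs, against 1746 in Cd4-positive and 1820.5 in Cd8a-positive T cells, and none of the 287 cells that Scrublet called doublets was a member.

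The gamma constant genes are shown first, because the reads that identify these cells fall on near copies. In the GRCm38 (mm10) reference the 4 genes of the Tcrg locus lie on chromosome 13, and the first coding exon has 330 bases in each: chr13:19214103-19214432 on the plus strand for Tcrg-C1, chr13:19307222-19307551 on the minus strand for Tcrg-C2, chr13:19260885-19261214 on the plus strand for Tcrg-C3 and chr13:19344558-19344887 on the plus strand for Tcrg-C4. Below are the first 90 bases of that exon, 5′ to 3′ on the coding strand, with capitals at the bases that differ from Tcrg-C1. 
Tcrg-C1: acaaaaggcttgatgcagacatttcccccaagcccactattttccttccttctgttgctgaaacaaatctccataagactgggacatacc
Tcrg-C2: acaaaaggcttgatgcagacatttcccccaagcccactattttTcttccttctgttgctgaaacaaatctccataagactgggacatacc
Tcrg-C3: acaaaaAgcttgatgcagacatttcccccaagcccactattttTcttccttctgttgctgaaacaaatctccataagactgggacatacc
Tcrg-C4: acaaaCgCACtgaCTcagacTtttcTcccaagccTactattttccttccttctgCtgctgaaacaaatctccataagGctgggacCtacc

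Over the whole exon Tcrg-C2 was 97.3% identical to Tcrg-C1, with 9 bases different, and Tcrg-C4 was 82.1% identical, with 59 different. In the last exon, which 3′ libraries sample most, Tcrg-C1 and Tcrg-C2 were 95.3% identical with a longest identical run of 104 bases, whereas Tcrg-C1 and Tcrg-C4 were 73.5% identical with a longest run of 12 bases. The split of reads between Tcrg-C1 and Tcrg-C2 is therefore uncertain, and their union with Tcrg-C4 is used below as the gamma constant. Values given below for Tcrg-C1 or Tcrg-C2 alone carry this uncertainty. The beta constants Trbc1 and Trbc2 differed at 1 of 375 bases of the first exon and were 74.7% identical in the last.

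The receptor transcripts bore out the label for most members. The gamma constant, which the rule did not use, was found in 138 of 177 members (78.0%). Among 1469 T cells just outside the rule, which met every other condition and had no Trdc UMI, 10.8% held it, and 76.7% held Trac, the alpha constant, against 25.4% of members (45 cells). By gene, 101 members held Tcrg-C1, 77 Tcrg-C2, 64 Tcrg-C4 and none Tcrg-C3. Alpha-beta constants were also present. Trbc1 was found in 46.9% of members, close to the 45.9% in NK cells, and Trbc2 in 71.2%, against 26.6% in NK cells and 2.06% in B cells (median UMIs 1484 in NK cells and 1597.5 in B cells). Trac was found in 3.36% of NK cells and 0.962% of B cells, so the share in members exceeded these backgrounds, and 16 members held Trac with no gamma constant. Only 31 members (17.5%) held no UMI of Trac, Trbc1 or Trbc2. Whether cells with Trac are alpha-beta cells with stray Trdc transcripts was not tested.

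The members spanned a wide range of Trdc counts: 46 held 1 UMI, the minimum of the rule, 131 held 2 or more and 63 held 5 or more, with a median of 3 and a maximum of 52. The gamma constant was present in 65.2% of cells with 1 Trdc UMI, 77.9% of those with 2 to 4 and 87.3% of those with 5 or more, at median depths of 1679.5, 1894 and 2283 UMIs. Cd163l1, a scavenger receptor gene of IL-17-producing gamma-delta T cells, rose more steeply across the same bins, from 4.35% to 20.6% and 50.8%, and was at 0.204% in the cells just outside the rule. The part of depth in these steps was not tested.

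**Figure D1:**
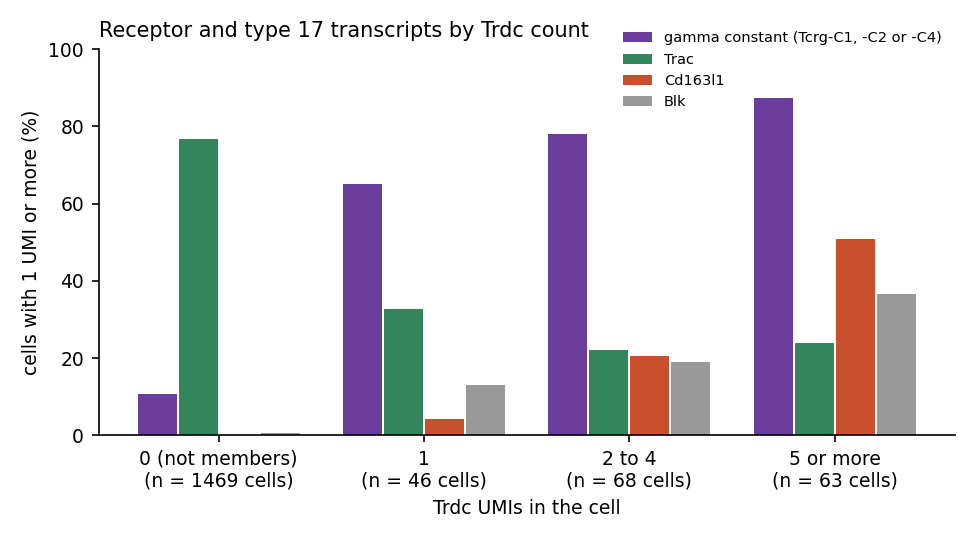
Bars give the percentage of cells with 1 UMI or more of the gamma constant (Tcrg-C1, Tcrg-C2 or Tcrg-C4), Trac, Cd163l1 and Blk (y axis) by the number of Trdc UMIs in the cell (x axis). Cells with 0 Trdc UMIs otherwise met the rule and are not members; the gamma constant stood at 10.8% in them and at 65.2% with a single Trdc UMI.

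Variable segments, which name the classical gamma-delta lineages, were rarely captured. Trgv2 was found in 11 members, Trdv4 in 10, Trdv2-2 in 6, Tcrg-V6 and Tcrg-V4 in 3 each, and Trdv5 in 0 of 177, which allows up to 1.69% of cells with a UMI at this depth and does not limit the share of cells that use the segment. All 3 Tcrg-V6 cells were in B6→B6 mice (2 in mouse 2, 1 in mouse 3), and 7 of the 10 Trdv4 cells were in B6→B6 mouse 2. Segment use could not be compared between grafts at this depth.

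Trdc was not confined to the members. It was found in 247 T cells, of which 70 were not members: 12 held no CD3 chain, 14 held Cd4, 29 held Cd8a and 42 held Cd8b1, with some cells failing on several counts, and none held Foxp3. It was also found in 9.69% of NK cells, where 81 of the 98 positive cells held Ncr1, the NK receptor NKp46, 7 held a CD3 chain and 0 held the gamma constant. Pooled over cells, the level of Trdc was 2206 CPM (UMIs of the gene per 1e+06 UMIs) in members, 68.6 in NK cells, 49.9 in cells labelled myeloid, 33.3 in the remaining T cells and at most 2.87 in the other annotated types; the first value is set by the rule. Over 14 populations, the 5 genes whose pooled CPM ranked most like that of Trdc were Tshz3 (Spearman's rho 0.86), Wdr45b (0.85), Alms1 (0.84), Slc26a10 (0.82) and Ncr1 (0.82); most are low genes, the populations differ in depth, and the values are a description.

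Gamma-delta T cells were a minor population in every graft, and their abundance overlapped between the groups. In B6→B6 mice 1 to 5 they numbered 4 of 179, 33 of 341, 15 of 426, 20 of 1470 and 3 of 147 T cells, or 2.23%, 9.68%, 3.52%, 1.36% and 2.04%. In HLA→B6 mice 1 to 3 they numbered 39 of 1147, 53 of 1130 and 10 of 231, or 3.40%, 4.69% and 4.33%. B6→B6 mouse 2 lay above every other mouse, its exact binomial 95% interval running from 6.76% to 13.3%, and the remaining B6→B6 mice overlapped the HLA→B6 mice or fell below them. The group means were 3.77% ± 3.40 (SD, n = 5) and 4.14% ± 0.666 (SD, n = 3), a difference of 0.373 points that did not pass the test (exact permutation test over mice, two-sided, p = 0.821; Benjamini-Hochberg over 4 share tests, 0.821). Within the libraries that shared barcodes the HLA→B6 value was lower by a difference of -0.45 points, and within the others it was 2.16 points higher, so the sets disagreed in sign. As a share of all cells the means were 0.863% ± 0.889 (SD, n = 5) and 1.00% ± 0.536 (SD, n = 3; exact permutation p = 0.821). Without T cell cluster 7 the share in B6→B6 mouse 4 rose to 2.71%.

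**Figure D2:**
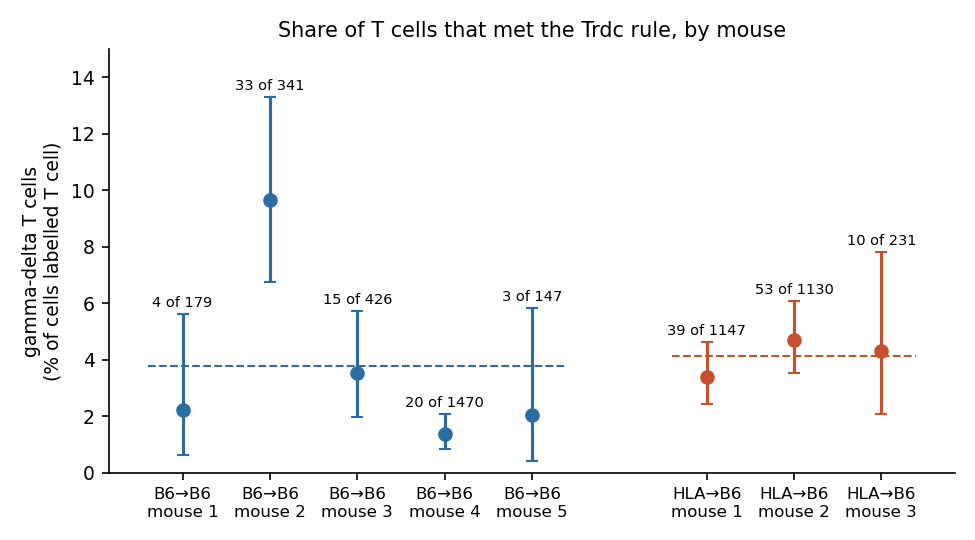
Points give gamma-delta T cells as a percentage of cells labelled T cell (y axis) in each mouse (x axis), with exact binomial 95% intervals that cover counting error only, the counts printed above, and dashed lines at the group means of 3.77% and 4.14%. B6→B6 mouse 2, at 9.68%, stands above the rest.

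Both effector programs could be read in these cells. The type 17 core list held 12 genes of IL-17-producing gamma-delta T cells (among them Il17a, Il17f, Il23r, Il1r1, Ccr6, Sox13, Blk, Cd163l1, 5830411N06Rik, Tmem176a and Tmem176b), and 72 members (40.7%) held 1 UMI or more of it. The cytotoxic and type 1 core list held 13 genes (Ifng, Tbx21, Eomes, Gzma, Gzmb, Gzmk, Prf1, Nkg7, Ccl5, Klrd1, Klrk1, Klrc1 and Xcl1), and 139 members (78.5%) held it. Of all members, 29 held the type 17 list alone, 96 the type 1 list alone, 43 both and 9 neither. After thinning each cell to 1000 UMIs, which left 162 cells, the shares were 38.6% and 68.7%. The type 17 list was held by 15.4% of Cd4-positive and 8.61% of Cd8a-positive T cells, 3.76% of NK cells and 30.1% of B cells, the last mainly through Blk, which 22.4% of B cells carry. The type 1 list was held by 46.3% of Cd4-positive and 75.2% of Cd8a-positive T cells, 100% of NK cells and 3.28% of B cells. Without T cell cluster 7 it was held by 95.8% of Cd8a-positive T cells, 47.8% of Cd4-positive T cells and 78.9% of members. The type 17 list then stood at 5.21%, 16.0% and 40.9% in the same order.

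Among type 17 genes, surface and signalling genes were found far more often than cytokines. Cd163l1 was found in 48 members, Blk (a B lymphoid kinase also used by IL-17-producing gamma-delta T cells) in 42, Tmem176a in 50 and Tmem176b in 52. Il1r1 was found in 11 members, Sox13 in 10, and Il23r and Ccr6 in 8 each. Il17a was found in 8 members, all of B6→B6 mouse 2, and Il17f in 0 of 177, which likewise allows up to 1.69% of cells with a UMI and does not limit the share that express it. Il17a was also found in 5 of 538 Cd4-positive T cells. In the wider type 17 list Kcnk1, a potassium channel gene, was found in 21 members and in no Cd4-positive, Cd8a-positive, NK or B cell, and Ltb4r1, the leukotriene B4 receptor, in 25 members. B6→B6 mouse 2 alone gave 25 of the 48 Cd163l1 cells, 20 of the 42 Blk cells, 14 of the 21 Kcnk1 cells and 18 of the 25 Ltb4r1 cells.

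Cytotoxic transcripts were led by surface receptors and chemokines, with few granule enzymes. Ccl5 was found in 93 members, Nkg7 (a granule membrane protein) in 90, Klrd1 (CD94) in 66, Klrk1 (NKG2D) in 64 and Klrc1 (NKG2A) in 52. Prf1 (perforin) was found in 11 members, Gzma in 9, Gzmb in 6, Ifng in 3 and Gzmk in 2. Of the NK markers outside the list, Klrb1c was found in 22 members, Ncr1 in 4 and Tyrobp in 3, whereas Klra4 and Klra8 were found in none; in NK cells these stood at 82.5%, 73.8%, 96.6%, 48.6% and 56.6%.

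Genes outside the core lists divided along the same line. Among the 29 cells with type 17 transcripts alone, 14 held Maf and 14 Icos, 15 held Actn2 and 12 held Ltb4r1. Among the 96 cells with type 1 transcripts alone, 2 held Maf, 7 Icos, 0 Actn2 and 0 Ltb4r1. The reverse held for Ly6c2 (1 of 29 and 64 of 96), Klrc2 (0 and 30), Klrb1c (0 and 21), Cxcr3 (0 and 32), and Cd27 (5 and 43). The median depth was 1723 UMIs in the former and 1932 in the latter. The 43 cells with both lists resembled the type 17 cells in Maf (20 cells), Actn2 (18) and Tcrg-C1 (36, or 83.7%, against 82.8% in type 17 cells and 41.7% in type 1 cells). In Cxcr3 they were nearer the type 1 cells (23.3%, against 0% and 33.3%), and in Cd7 (37.2%, against 10.3% and 64.6%) and Cd27 (30.2%, against 17.2% and 44.8%) they lay between the classes. Of the 9 cells with neither list, 7 held Trac and 1 each held Tcrg-C1, Tcrg-C2 and Tcrg-C4. These classes were cut from UMIs of the cells described, so the counts are a description.

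Nuclear receptors bind the half-site AGGTCA, and the 250 bases upstream of each RefSeq start site were searched for it on both strands. It was present for 5 of the 10 type 17 core genes with a promoter in the table, 2 of 15 of the wider type 17 list, 0 of 11 of the type 1 core list and 15.8% of 27025 genes. The matches of Il17a, Il17f, Il23r (2 matches) and Ccr6 are printed as windows of 30 bases (GRCm38, on the gene's strand) with the half-site or its reverse complement in capitals, because these are the members of the list that few cells expressed: chr1:20730773-20730802 (plus) for Il17a, chr1:20784311-20784340 (minus) for Il17f, chr6:67491904-67491933 and chr6:67492067-67492096 (both minus) for Il23r and chr17:8235987-8236016 (plus) for Ccr6. 
Il17a: gtggttctgtgcTGACCTcatttgaggatg
Il17f: cagtcagtaaggAGGTCAgtggaaacaggg
Il23r: aaatgaaaatgtAGGTCAgggctctgctga
Il23r: catgaccaccatTGACCTgtttgacttctt
Ccr6: cagtgaaatcatTGACCTagttacataagt

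The remaining core gene with a match was 5830411N06Rik (chr7:140247051-140247080, plus). A match is only a run of letters in the window and was not tested for binding. Tmem176a and Tmem176b, the commonest members of the list, had no match. They are transcribed away from each other from start sites separated by the 108 bases of chr6:48841375-48841482 (GRCm38), printed here on the plus strand because both genes share it, with the ETS core GGAAGT in capitals; 22.2% of genes hold that core upstream on either strand.
Tmem176a-Tmem176b: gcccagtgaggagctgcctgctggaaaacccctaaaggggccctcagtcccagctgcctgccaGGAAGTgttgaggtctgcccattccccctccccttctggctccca

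The balance of the programs varied between mice, with overlap between groups. Among mice with 10 members or more, the type 17 share was 84.8%, 46.7% and 40.0% in B6→B6 mice 2, 3 and 4 and 46.2%, 11.3% and 10.0% in HLA→B6 mice 1, 2 and 3. HLA→B6 mouse 1 lay among the B6→B6 mice and the other two below them. The means were 57.2% ± 24.2 and 22.5% ± 20.5 (SD, n = 3 each), which did not pass the test (exact permutation test over mice, two-sided, p = 0.2, Benjamini-Hochberg 0.4); with 3 against 3 mice the smallest p is 0.1. The type 1 share was 63.6%, 66.7% and 75.0% against 74.4%, 94.3% and 80.0%, with means of 68.4% ± 5.88 and 82.9% ± 10.3 (SD, n = 3 each; exact permutation p = 0.2, Benjamini-Hochberg 0.4). On this scale the groups overlapped by 1 mouse. With 2 UMIs of the list or with thinned cells they no longer did, the difference growing from 14.5 points to 40.4 and 37.2 points (exact permutation p = 0.1 each, the smallest possible).

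The libraries that shared barcodes bore on the size of these differences. Within them (B6→B6 mice 2 and 3, HLA→B6 mouse 2) the type 17 difference was -54.4 points and the type 1 difference 29.2 points. In the other libraries (B6→B6 mouse 4, HLA→B6 mice 1 and 3) they were -11.9 and 2.18 points. The sign was the same in both sets, and each holds 1 mouse of a group.

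**Figure D3:**
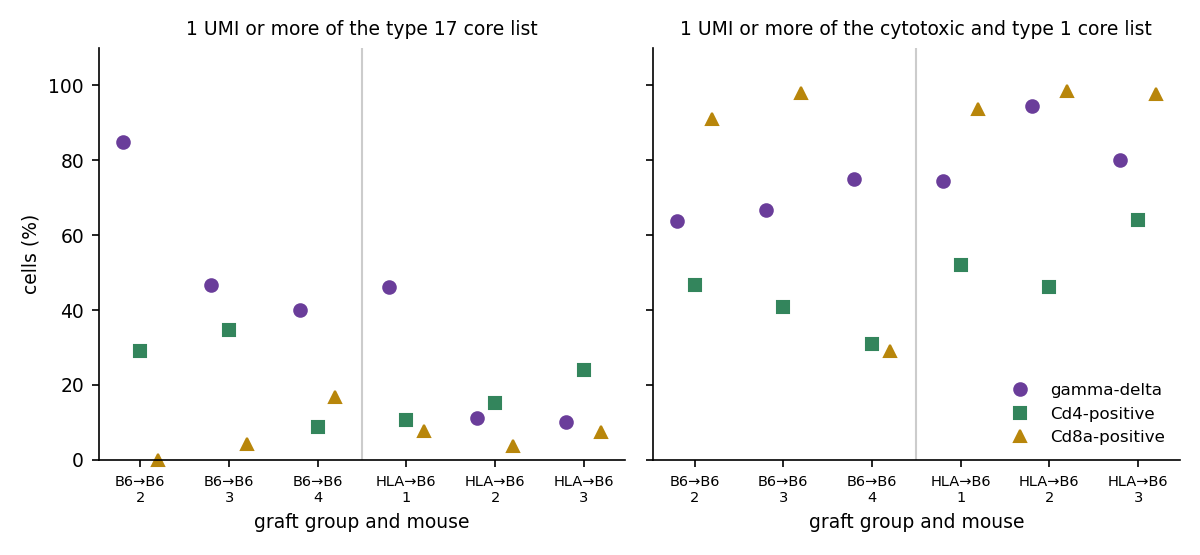
Points give the percentage of cells with 1 UMI or more of the type 17 core list (left) and of the cytotoxic and type 1 core list (right) in gamma-delta, Cd4-positive and Cd8a-positive T cells (y axis) of the 6 mice with 10 gamma-delta T cells or more (x axis). Gamma-delta T cells span 10.0% to 84.8% for type 17 and 63.6% to 94.3% for type 1; the Cd8a-positive value of 29.1% in B6→B6 mouse 4 includes T cell cluster 7.

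To place these cells beside conventional T cells, UMIs were summed per mouse and subset in those 6 mice and compared within mouse with edgeR's quasi-likelihood test over 2746 genes, with the genes of the rule left out. Levels are CPM scaled by the trimmed mean of M-values, and log2 differences come from the fit. Fewer cells of a type and less RNA per cell cannot be told apart in such sums.

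Against Cd4-positive T cells, gamma-delta T cells were higher in the gamma constants, type 17 surface genes and NK-type receptors, and lower in the alpha-beta constants and in 6 of 18 T cell receptor signaling genes. At an adjusted p under 0.05, 52 genes were higher (1.89% of those tested) and 53 lower (1.93%), 3.82% in all, of which 23 and 43 moved the same way in all 6 mice. The median log2 difference over all genes was -0.0048. Leaving out HLA→B6 mouse 1 reduced the 105 calls to 61.

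The receptor genes divided by chain. All 3 gamma constants were higher and all 3 alpha-beta constants lower, and none of the 6 had been used in the rule. Only 3 of the 12 gamma-delta receptor genes present in the data passed the filter on counts. In Cd4-positive T cells Tcrg-C1, Tcrg-C2 and Tcrg-C4 held 9, 13 and 3 UMIs and could hardly come out lower. The gamma tally is therefore partly set by the filter. Tcrg-C1 ran from 300.3 to 2013 CPM with a median of 747 in gamma-delta T cells and from 0 to 19.4 CPM in Cd4-positive T cells, with no overlap (log2 difference 6.46 ± 0.41 SE, adjusted p = 4e-11). Trac ran from 182 to 300.3 CPM against 1037 to 1549 CPM, again without overlap (-2.55 ± 0.19 SE, adjusted p = 5.2e-10). Trbc1 and Trbc2 differed by -1.01 and -1.02, less than Trac, and were lower in all 6 mice.

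Of the type 17 core list 5 of 6 genes tested were higher and none lower, with a median log2 difference of 4.60. The median was 3.24 with 5830411N06Rik, at 0 UMIs in Cd4-positive T cells, set at its counting bound. Only 6 of the 12 listed genes passed the filter on counts. Of these, Cd163l1, Blk and 5830411N06Rik were at or near 0 in Cd4-positive T cells and could not come out lower. The tally and its median are therefore partly set by the filter. Cd163l1 ran from 48.7 to 1331 CPM with a median of 308, on 193 UMIs, against 1 UMI in Cd4-positive T cells, a ratio by counts of 503 (95% interval 89.2 to 19965; adjusted p = 1.9e-09). Its neighbour 5830411N06Rik, a related scavenger receptor gene (GRCm38 chr7:140247284-140300736, beside Cd163l1 at chr7:140218267-140231145), had 25 UMIs against 0, at least 21.7-fold higher with the floor of 3 counts set over the group (adjusted p = 0.0047). Blk had 85 UMIs against 1 (ratio by counts 221, 38.7 to 8850; adjusted p = 1.9e-07). Tmem176a and Tmem176b, which Cd4-positive T cells also express, differed by 1.61 ± 0.39 and 1.44 ± 0.40 (adjusted p = 0.015 and 0.04) and were higher in 5 and 4 of 6 mice. In the wider list 2 of 14 were higher, Serpinb1a (an intracellular protease inhibitor, 2.43 ± 0.55) and Actn2 (2.29 ± 0.49), and 1 was lower, Batf (-1.05 ± 0.30).

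Cytotoxic and NK-type genes were also higher. Of the type 1 core list 6 of 10 tested were higher and none lower, with a median of 2.15. Klrc1 ran from 77.9 to 701 CPM with a median of 415, against 0 to 32.2 CPM (4.98 ± 0.43, adjusted p = 6.5e-09). Klrk1 differed by 3.63 ± 0.42 and Klrd1 by 2.51 ± 0.37, each higher in 6 of 6 mice. Ccl5, a chemokine for T cells and monocytes, ran from 1897 to 15306 CPM against 73.8 to 1992 CPM, with 2 gamma-delta values, 1897 and 1986, under the highest Cd4-positive value (2.96 ± 0.35, adjusted p = 1.7e-06). Of the wider list, Il2rb, Ly6c2, Klrc2 and Ctsw were higher and the chemokine gene Ccl3 lower, of 12 tested. All 4 NK receptor genes tested were higher: Cd7 (3.13 ± 0.37), Fcer1g (3.83 ± 0.78), Klre1 (2.91 ± 0.59) and Klrb1c, on 33 UMIs against 1 (ratio by counts 86.0, 14.4 to 3498). Only 4 of the 16 listed genes passed the filter, and Klrb1c could not come out lower, so this tally too is partly set by the filter. F2r, the thrombin receptor PAR1, was higher by 2.73 ± 0.47 and Cd160 by 2.76 ± 0.73.

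Of 18 T cell receptor signaling genes 6 were lower and none higher, with a median of -0.80: Cd28 (-2.02 ± 0.31), Cd5 (-2.15 ± 0.31), Cd6 (-2.18 ± 0.37), Cd2 (-0.87 ± 0.24), Ctla4 (-2.34 ± 0.63) and Cd40lg, the CD40 ligand, on 2 UMIs against 108 (ratio by counts 0.0483, 0.00577 to 0.179). Cd40lg passed the filter on counts through Cd4-positive T cells and could hardly come out higher. Ctla4 was also low in members, at 9 UMIs over all 177. This tally too is therefore partly set by the filter. The costimulator Icos did not pass (-1.05 ± 0.34, adjusted p = 0.094). Cd5 ran from 0 to 77.9 CPM against 180 to 320.0 CPM, with no overlap. Tbc1d4 held 1 UMI against 127 (ratio by counts 0.0205) and Il6ra 2 against 69 (0.0755). Lag3, an inhibitory receptor, was at 0 in 4 of the 6 mice and at 100.1 CPM in the highest, against 12.9 to 347 CPM (-4.15 ± 0.61, adjusted p = 5.4e-05). Tnfrsf4 (OX40, -3.54 ± 0.46), Ifi27l2a (-3.22 ± 0.29), Izumo1r (folate receptor 4, -3.04 ± 0.43), Trat1 (-2.76 ± 0.68) and Tnfsf8 (-2.56 ± 0.47) completed the 10 largest falls shared by every mouse.

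Against Cd8a-positive T cells, 5 of 6 type 17 core genes were higher, and 4 of 10 type 1 core genes, Nkg7, Prf1, Gzmb and Gzmk, were lower. At an adjusted p under 0.05, 31 genes were higher (1.13% of 2746) and 19 lower (0.692%), 1.82% in all, of which 10 and 14 moved the same way in all 6 mice, and the median over all genes was -0.02. This comparison shared its gamma-delta sums with the one above. Leaving out T cell cluster 7, which made up much of the Cd8a-positive pool of B6→B6 mouse 4, raised the 50 calls to 103, with 50 higher and 53 lower, and leaving out HLA→B6 mice 1 and 2 in turn gave 28 and 76.

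Type 17 core genes were higher for 5 of 6 tested, with a median of 4.42. Cd163l1 and Blk were near 0 in Cd8a-positive T cells, so the filter on counts partly sets this tally as well. Cd163l1 stood at 0 to 5.95 CPM in Cd8a-positive T cells (8 UMIs; log2 difference 6.51 ± 0.47, adjusted p = 3.5e-10). Blk held 1 UMI there against 85 (ratio by counts 694, 121 to 27743). Tmem176a ran from 48.7 to 1111 CPM with a median of 332 against 0 to 27.5 CPM, with no overlap (4.59 ± 0.47, adjusted p = 1.9e-07), and Tmem176b differed by 4.24 ± 0.47. Of 14 wider type 17 genes 4 were higher and none lower, with a median of 0.96: Serpinb1a (3.79 ± 0.58), Maf (c-Maf, 2.86 ± 0.56), Actn2 (1.85 ± 0.43) and Rora (1.83 ± 0.37). The gamma constants differed unequally, Tcrg-C1 by 6.02 ± 0.34, Tcrg-C4 by 3.89 ± 0.48 and Tcrg-C2 by 1.88 ± 0.36, and Cd8a-positive T cells carried Tcrg-C2 at up to 196 CPM. The gap between Tcrg-C1 and Tcrg-C2 is subject to the uncertain split of their reads. Trac, Trbc1 and Trbc2 differed by -2.21, -1.04 and -1.19.

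Of the type 1 core list 1 of 10 was higher and 4 lower, with a median of -0.62. Klrc1 was higher (1.43 ± 0.27, adjusted p = 0.0022, 6 of 6 mice). Nkg7 ran from 506 to 1683 CPM against 733 to 5042 CPM and was lower in 6 of 6 mice (-1.38 ± 0.20, adjusted p = 0.00012). Prf1 (-2.28 ± 0.43), Gzmb (-2.37 ± 0.61) and Gzmk (-2.62 ± 0.54) were lower as well. In gamma-delta T cells Prf1 held 10 UMIs against 421, and Gzmk 12 against 592, all in 2 cells of HLA→B6 mouse 2. Gzmb held 7 UMIs over all 177 members. These 3 genes could hardly come out higher, so the filter on counts partly sets this tally. Gzma (0.77 ± 0.81), Klrd1 (-0.12 ± 0.30) and Ccl5 (-0.92 ± 0.31, lower in 6 of 6 mice) did not pass the test. Of 12 wider type 1 genes only Ccl3 passed, lower, on 2 UMIs against 627 (ratio by counts 0.0261, 0.00315 to 0.0945). NK receptors gave 2 calls of 4, both higher, Klrb1c (3.06 ± 0.69) and Fcer1g (3.39 ± 0.66). Fcer1g was higher in the 3 HLA→B6 mice and in no B6→B6 mouse, at 277, 146 and 350.4 CPM against 0, 0 and 19.5 CPM in gamma-delta T cells. Lag3 (-4.38 ± 0.58), Fas (the death receptor, -2.17 ± 0.56), Themis (a thymocyte selection gene, -2.02 ± 0.40), Racgap1 (-1.94 ± 0.47), Ifi27l2a (-1.74 ± 0.30) and the integrin Itga4 (-1.54 ± 0.34) were lower in every mouse. F2r (1.61 ± 0.38), Snx2 (1.48 ± 0.29), Serinc3 (0.87 ± 0.20) and Zfp36l1 (0.83 ± 0.22) were higher in every mouse. Several of these calls were lost when single mice were left out: Zfp36l1 passed in 1 of 6 such fits, F2r and Serinc3 in 2 of 6, Itga4 in 4 of 6, Snx2, Prf1 and Gzmk in 5 of 6, and Racgap1 and Fas in 1 of the 3 and 1 of the 4 in which they were tested.

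**Figure D4:**
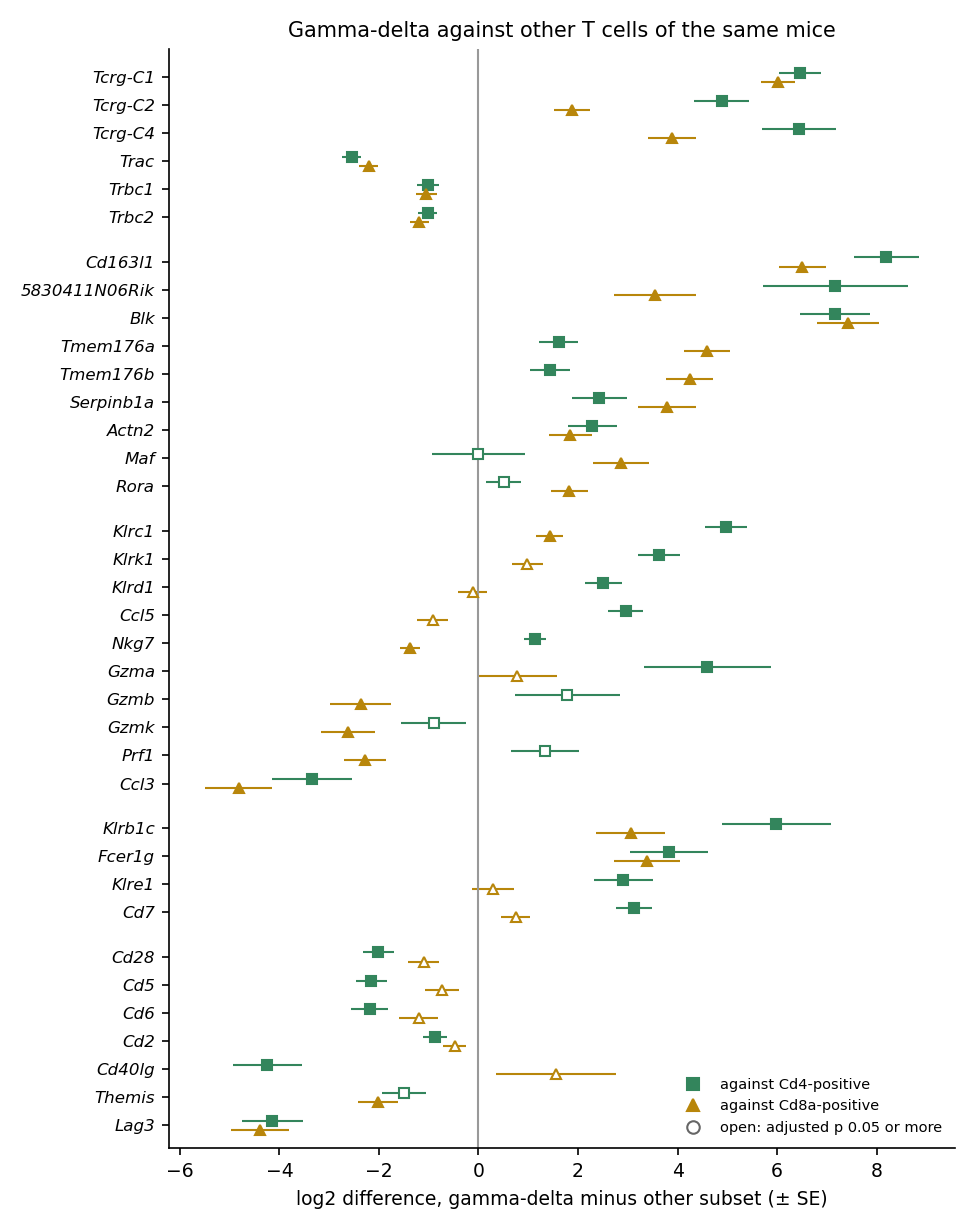
Points give the log2 difference of gamma-delta minus Cd4-positive (squares) or Cd8a-positive (triangles) T cells with its SE (x axis) for genes of the receptor, type 17, cytotoxic, NK and signaling groups (y axis), from edgeR over 6 mice; open symbols had an adjusted p of 0.05 or more. The type 17 core genes shown, Serpinb1a and Actn2 were higher in both comparisons, while Maf and Rora passed against Cd8a-positive T cells only. Nkg7 lies at 1.13 against Cd4-positive and at -1.38 against Cd8a-positive T cells.

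Several other lists gave calls as well, where 3.82% of all genes were called against Cd4-positive and 1.82% against Cd8a-positive T cells. Of homing and residency genes, 17 tested, Selplg (the selectin ligand PSGL-1, 1.02 ± 0.17) was higher and Itgb1 (-1.56 ± 0.31) and Itga4 (-1.74 ± 0.35) lower than in Cd4-positive T cells, while Itgb7 was higher (1.12 ± 0.21) and Itga4 lower than in Cd8a-positive T cells. Of 11 naive and central memory genes, Igfbp4, Dapl1 and Il6ra were lower than in Cd4-positive and Dapl1 lower than in Cd8a-positive T cells. Of 5 inhibitory receptor genes tested, Cd160 was higher and Lag3 and Ctla4 lower than in Cd4-positive T cells. Only Lag3 was called against Cd8a-positive T cells, where it was lower. Il6ra and Lag3, at 2 and 4 UMIs in gamma-delta T cells, could hardly come out higher. None of 11 interferon response, 9 activation, 4 proliferation, 1 type 2 and 1 lipid gene tested passed in either comparison, and Mki67 was found in 0 of 177 members. Of 3 NKT and MAIT genes tested, Klrb1c was higher than in both and Slamf6 lower than in Cd4-positive T cells (-2.17 ± 0.38).

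Markers of other cells were present in the members to unequal degrees. NK markers were found for 8 of 10 genes, and 3 of 3 tested were higher than in Cd4-positive and 2 of 3 higher than in Cd8a-positive T cells. The 3 tested are NK receptor genes already counted above, with the same limit of the filter. B cell markers were found for 6 of 6 genes and summed to up to 865 CPM, in HLA→B6 mouse 1; the 1 tested, Ighm, was not called between subsets. Macrophage and monocyte markers were found for 3 of 8 genes (C1qa, C1qb, Mrc1, Ear2 and Csf1r at 0), neutrophil markers for 1 of 4 and endothelial markers for 3 of 4. Epithelial and erythroid markers summed to 393 and 562 CPM in B6→B6 mouse 4 and to at most 40.5 CPM and 0 in the other mice, and Scgb1a1 and Hbb-bs were lower than in Cd4-positive T cells.

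Within gamma-delta T cells, HLA→B6 grafts were compared with B6→B6 grafts on sums of the same 6 mice with edgeR's quasi-likelihood test over 885 genes. Of these, 3 were higher and 4 lower in HLA→B6 grafts (0.339% and 0.452% of those tested, 0.791% in all), and the median log2 difference over all genes was -0.10. Regardless of the test, all HLA→B6 mice lay above all B6→B6 mice for 6.44% of genes and below them for 9.49%. The 7 calls rested on few mice. Without B6→B6 mouse 2, HLA→B6 mouse 2 or HLA→B6 mouse 3 the same test called 0 genes (73, 60 and 126 at an unadjusted p under 0.05), and without B6→B6 mouse 3, B6→B6 mouse 4 or HLA→B6 mouse 1 it called 23, 46 and 19. With members of 2 Trdc UMIs or more it called 0 of 975 (133 at an unadjusted p under 0.05). The 7 genes kept their sign in each of 14 alternative settings. Their levels below are CPM as scaled in the fit of all T cell subsets. The log2 differences and adjusted p come from the fit of gamma-delta sums alone, where the scaling differs. In that fit Klrd1, for example, ranged from 637 to 1029 CPM in the HLA→B6 mice.

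Of the 3 genes higher in HLA→B6 grafts, 1 was on the core and 1 on the wider type 1 list. Klrd1, the CD94 chain of NKG2 receptors, stood at 46.3, 182 and 156 CPM in B6→B6 mice 2, 3 and 4 and at 651, 798 and 851 CPM in HLA→B6 mice 1, 2 and 3. The groups were far apart (log2 difference 2.67 ± 0.46 SE, adjusted p = 0.017). Ctsw, the lymphocyte cathepsin W, stood at 81.0, 121 and 117 CPM against 374, 545 and 501 CPM (2.11 ± 0.41, adjusted p = 0.027). Pglyrp1, a secreted peptidoglycan recognition protein, stood at 11.6, 60.7 and 19.5 CPM against 249, 224 and 350.4 CPM, on 1, 2 and 1 UMIs in the former (3.23 ± 0.65, adjusted p = 0.027). Neither Ctsw nor Pglyrp1 overlapped between groups. In B6→B6 mice 2, 3 and 4 Klrd1 rested on 4, 6 and 8 UMIs and Ctsw on 7, 4 and 6.

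The genes lower in HLA→B6 grafts included 2 of the wider type 17 list. Maf stood at 382, 364 and 234 CPM in B6→B6 mice 2, 3 and 4 and at 83.0, 9.73 and 50.1 CPM in HLA→B6 mice 1, 2 and 3 (-3.00 ± 0.61, adjusted p = 0.027). Ramp1, a subunit of the receptor for the neuropeptide CGRP, stood at 463, 668 and 487 CPM against 221, 68.1 and 50.1 CPM (-2.17 ± 0.47, adjusted p = 0.039). The groups did not overlap for either. S100a4, a calcium-binding protein of motile and memory cells, stood at 1284, 729 and 565 CPM against 263, 29.2 and 100.1 CPM (-2.84 ± 0.60, adjusted p = 0.033). Selenop, the plasma selenium carrier, stood at 1111, 880.3 and 350.4 CPM against 166, 68.1 and 50.1 CPM (-3.03 ± 0.54, adjusted p = 0.017), again without overlap. The low HLA→B6 values rested on few UMIs. In HLA→B6 mice 1, 2 and 3 these were 6, 1 and 1 for Maf and 16, 7 and 1 for Ramp1. For S100a4 they were 19, 3 and 2, and for Selenop 12, 7 and 1.

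By list, no type 17 core gene passed of 4 tested, and all 4 had a negative difference with a median of -2.17: Blk (-2.30 ± 0.67, adjusted p = 0.11), Tmem176b (-2.27 ± 0.67, 0.11), Cd163l1 (-2.06 ± 0.68, 0.17) and Tmem176a (-2.01 ± 0.61, 0.14). Of the type 1 core list 1 of 5 passed, Klrd1, all 5 differences were positive and the median was 1.22. Of the wider type 1 list 1 of 8 passed, Ctsw, with a median of 1.36, and Cxcr3 (2.60 ± 0.59, adjusted p = 0.053), Ly6c2 (2.01 ± 0.54, 0.086), Il2rb, Ctsw and Txk did not overlap between groups. Tcrg-C1 differed by -1.76 ± 0.43 (adjusted p = 0.063), Tcrg-C4 by -0.70 ± 0.38 and Tcrg-C2 by -0.08 ± 0.40, with the split of reads between Tcrg-C1 and Tcrg-C2 uncertain. NK markers moved with the groups: 8 of 10 were found, with Klra4 and Klra8 at 0, and their sum ran from 18.7 to 198 CPM in the B6→B6 mice and from 470 to 1223 CPM in the HLA→B6 mice; B6→B6 mouse 5, with 3 members and outside the fit, stood at 1246 CPM. B cell markers summed to 79.3 to 300 CPM and 262 to 865 CPM. The part of either in the differences above was not tested.

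**Figure D5:**
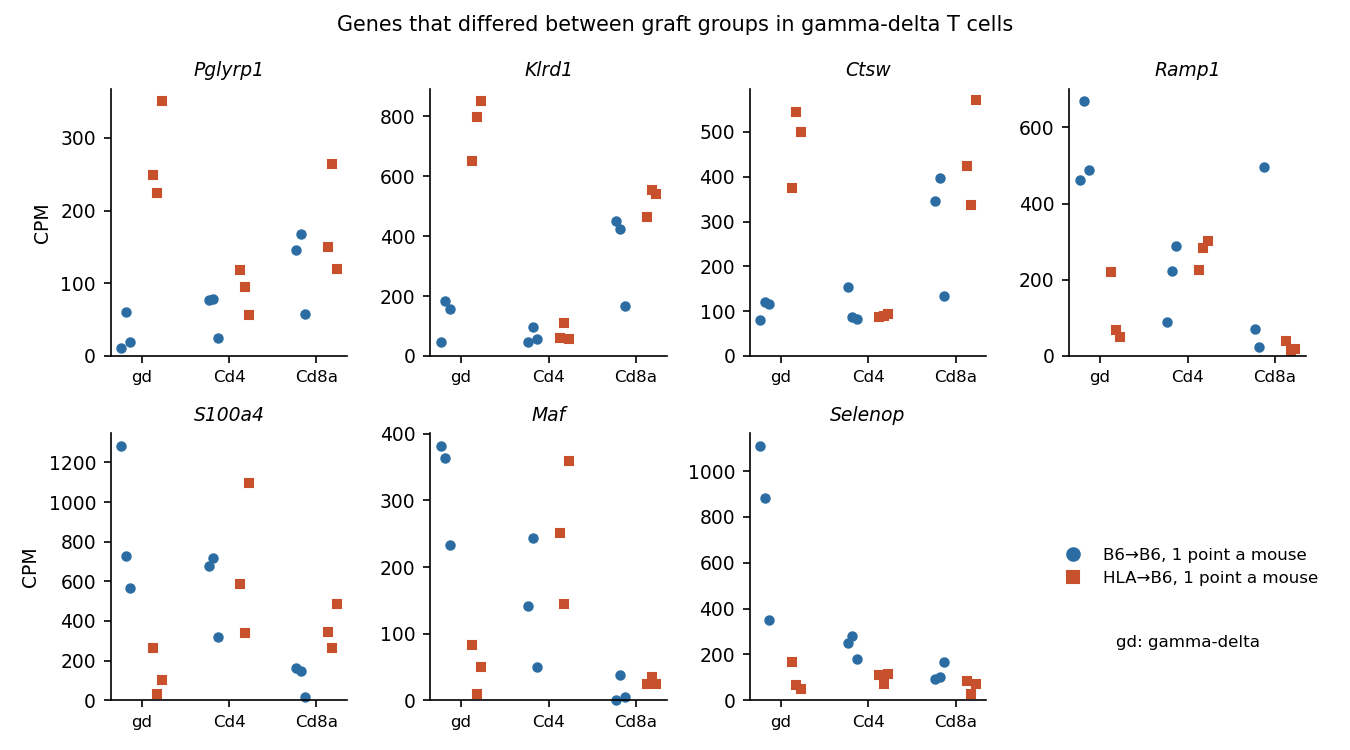
Each panel plots the CPM of a gene (y axis) in gamma-delta (gd), Cd4-positive and Cd8a-positive T cells (x axis) of the 6 mice, with circles for B6→B6 and squares for HLA→B6. In gamma-delta T cells the groups do not overlap in any panel, for example 46.3 to 182 against 651 to 851 CPM for Klrd1, whereas among the other subsets they separate only for Klrd1 and S100a4 in Cd8a-positive T cells and for Selenop in both.

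To ask whether these differences were shared by other T cells, the graft effect in gamma-delta T cells was tested against that in Cd4-positive and in Cd8a-positive T cells as an interaction over 3220 genes. Against Cd4-positive T cells 12 genes were higher and 15 lower (0.373% and 0.466%, 0.839% in all), and against Cd8a-positive T cells 23 and 30 (0.714% and 0.932%, 1.65% in all); both contrasts share the gamma-delta sums. The counts moved with single mice: 9 to 52 and 15 to 117 when each was left out. Without B6→B6 mouse 2 they were 9 and 18, without B6→B6 mouse 4 52 and 117, without HLA→B6 mouse 1 16 and 39, and without HLA→B6 mouse 2 11 and 15. Without T cell cluster 7 they were 46 and 107.

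Of the 7 genes, which had been called on these same gamma-delta sums, Maf, S100a4 and Klrd1 passed in each contrast. The HLA→B6 effect on Maf was lower in gamma-delta than in Cd4-positive T cells by a log2 difference of -3.67 ± 0.65 (adjusted p = 0.0014) and than in Cd8a-positive T cells by -4.25 ± 0.78 (adjusted p = 0.00065). Maf in Cd4-positive T cells averaged 145 ± 96.9 CPM in B6→B6 and 251 ± 107 CPM in HLA→B6 mice (SD, n = 3 each). In Cd8a-positive T cells Maf was near the floor, at 14.3 ± 21.0 CPM (lowest 0) and 27.6 ± 6.33 CPM. S100a4 gave -2.73 ± 0.51 and -4.69 ± 0.52, and Klrd1 2.44 ± 0.61 and 2.09 ± 0.47. Ctsw passed against Cd4-positive T cells (2.55 ± 0.55, adjusted p = 0.0091) and not against Cd8a-positive T cells (1.66 ± 0.47, adjusted p = 0.059), and Pglyrp1 the reverse (2.61 ± 0.79, adjusted p = 0.13, and 2.72 ± 0.70, adjusted p = 0.03). Selenop did not pass against either (-1.52 ± 0.57 and -1.50 ± 0.55), and it was lower in HLA→B6 grafts in Cd4-positive T cells too, at 99.1 ± 23.3 against 238 ± 52.0 CPM. Ramp1 did not pass either (-2.66 ± 0.70, adjusted p = 0.053, and 0.69 ± 0.74).

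Other genes also gave a graft effect that differed between subsets. An interaction does not show in which subset the level moved. Pdcd1, which encodes the inhibitory receptor PD-1, gave -5.51 ± 0.77 against Cd4-positive and -4.32 ± 0.68 against Cd8a-positive T cells. No inhibitory receptor gene, Pdcd1 among them, passed the filter for the comparison of grafts within gamma-delta T cells. The chemokine receptor Cxcr6 gave -1.91 ± 0.46 and -3.77 ± 0.46, and Ly6c2 2.93 ± 0.59 and 2.27 ± 0.43. The kinase Txk gave 2.42 ± 0.50 and 2.68 ± 0.44. The gamma constants passed against Cd8a-positive T cells only (Tcrg-C1 -2.84 ± 0.68, Tcrg-C2 -2.81 ± 0.51 and Tcrg-C4 -3.96 ± 0.85). Within gamma-delta T cells their graft differences were smaller, at -1.76, -0.08 and -0.70, and none passed the test. These interactions are therefore not falls of that size within gamma-delta T cells. No type 17 core gene passed, of 7 tested, against either subset. By list, the wider type 17 genes gave 2 and 4 calls of 16, all lower, the type 1 core genes 2 and 2 of 11, all higher, and the wider type 1 genes 4 and 3 of 13, of which 1 in each, Ccl4, was lower. The B cell marker Ighm passed against Cd8a-positive T cells (1.82 ± 0.48, adjusted p = 0.036).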

How the data were processed

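Lung graft cells of 8 mice (5 B6→B6, 3 HLA→B6) were read as UMI counts. The authors deposited raw counts of 17921 genes per cell made with Cell Ranger on mm10, after leaving out shallow barcodes and rare genes; SoupX is named for free RNA, and no source used here says whether the deposited counts precede it. The deposited annotation gave each cell's mouse, cluster and type. HLA→B6 mice are numbered as in that annotation, since the cell names carry other numbers. Members were selected by the rule above, and their UMIs summed per mouse for mice with 10 members or more, so B6→B6 mice 1 and 5 (4 and 3 members) entered only the shares. Members hold 4013 to 110695 UMIs per mouse.

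Shares were compared with exact permutation tests over mice, two-sided. Sums were tested with edgeR 4.0.16 (quasi-likelihood, TMM, filterByExpr minimum count 10, Benjamini-Hochberg, threshold 0.05), with the mouse as a block between subsets, since the subsets come from the same mice. Counting ratios carry exact 95% intervals that, like the binomial ones, cover counting error only. On simulated data the test recovered 96.0% of changed genes between subsets (175 tested) and 96.3% between grafts (162 tested). The simulation planted large changes of a single size, gave every gene a common spread and held no differences between mice beyond depth. These percentages therefore do not measure power in the real mice. Doublets were sought with Scrublet (scanpy 1.11.5). Alternatives were DESeq2 1.42.0, no filter, thinning, other cell minimums, barcode and doublet removal, each mouse left out, and, chosen after seeing the data, T cell cluster 7 left out and Blk left out of the type 17 list. Named genes were list members, the 10 largest changes each way shared by every mouse, every call between grafts, and the 5 genes most like Trdc. The members and lists were chosen with earlier results of these data known. Nothing in the sources used here says that libraries were prepared together or apart. Coordinates and constant-gene sequences are from GENCODE vM21 and promoters from RefSeq, both GRCm38; 10 of 12 type 17 core genes matched a promoter. Some genes of the lists are not reported here by name.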

Additional observations from a re-analysis of the deposited data

Results flagged for a closer look

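B6→B6 mouse 2 stood apart from the other B6→B6 mice in gamma-delta abundance. Its share was 9.68% of T cells, where the next mouse had 3.52%, and the same 9.68% of T cell cluster 1, and 2.44% of all cells, where the next had 0.616%. The gap to the nearest mouse was 0.740, 0.806 and 0.871 of the range over the 5 mice, above Dixon's critical value of 0.71; chance alone flags about 1 in 20 groups. The same mouse had the highest type 17 share, and its library shares barcodes with others; the part of that in its share was not tested.

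In the interaction test, the graft effect in gamma-delta T cells differed from that in Cd4-positive T cells for Ctsw (log2 difference 2.55), Klrd1 (2.44), Maf (-3.67) and S100a4 (-2.73). It differed from that in Cd8a-positive T cells for Klrd1 (2.09), Pglyrp1 (2.72), Maf (-4.25) and S100a4 (-4.69).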

How the results depend on the processing

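Of 115 alternative values of the main comparisons, 75 were rated the same as the main value. For tested shares this meant the same direction and side of the threshold, and for gene tests only a similar number of calls. The share of T cells differed by 0.373 points and turned to -0.24 with 2 Trdc UMIs or more; the share of all cells differed by 0.14 points and turned to -0.0064. Leaving out each mouse gave -0.23 to 1.85 and -0.16 to 0.535 points, with the first turning without B6→B6 mice 1, 4 or 5 (-0.0102, -0.229 and -0.0586) and the second without HLA→B6 mouse 2 (-0.164). The type 17 difference ran from -46.5 to -20.8 points and the type 1 difference from 8.75 to 18.7 when each mouse was left out, and the type 17 difference was -35.5 points without Blk.

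Calls against Cd4-positive T cells (105) became 194 with no filter, 55 with 20 cells or more, 32 after thinning (1132 genes tested) and 61 to 95 when each mouse was left out. Calls against Cd8a-positive T cells (50) became 241, 36, 25 and 28 to 76 in turn, and 103 without T cell cluster 7; DESeq2 gave 39 higher and 14 lower, against 31 and 19. The interaction calls against Cd4-positive T cells (27) ran from 9 to 52 when each mouse was left out and were 46 without cluster 7. Those against Cd8a-positive T cells (53) ran from 15 to 117, were 107 without cluster 7, and with DESeq2 were 29, 7 higher and 22 lower against 23 and 30. Calls between grafts (7) became 26 with no filter, 13 with 20 cells or more, 11 with DESeq2, 11 without cluster 7, 0 with 2 Trdc UMIs or more, and 0 to 46 when each mouse was left out; of the 7 genes, 7 stayed past the threshold with DESeq2 and without cluster 7, 6 with no filter, and 2 with 20 cells or more. The cause was not tested. Named genes kept their sign in every setting, and 19 of 21 against Cd4-positive and 12 of 21 against Cd8a-positive T cells passed in each fit without 1 mouse in which they were tested; Cd160 and Trat1 were the exceptions against Cd4-positive T cells.

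Without the mouse as a replicate block the subset calls fell to 45 and 24. Replicate numbers do not pair the graft groups: deviations correlated at -0.09 and 0.04 for numbers 2 and 3. A replicate block by number gave 18 calls between grafts, 6 of the 7 genes among them, and the barcode-sharing set as a block gave 11, with all 7. Members without alpha-beta constant transcripts were too few to be fitted and were not run. Depth limits these results: 885 genes passed the filter between grafts, and 2 B6→B6 mice had under 10 members.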

Other observations

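Trdc was also found in 63 cells labelled myeloid, 8.34% of them (median 3400 UMIs), and 60 of the 63 were of B6→B6 mouse 4. Of these 63 cells 61 held a CD3 chain, 50 Cd8a, 53 Dntt, 30 Rag1 and 38 Mki67, the last a gene of dividing cells, and 10 held the gamma constant. The rule left them out by their label. T cell cluster 7 of the same mouse gave 20 cells with Trdc, of which 14 held Dntt and 12 Cd8a.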
